A study of Mus musculus with 12 samples.

Results

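The genes described here are 35 genes of the interferon response and of MHC class I antigen presentation, out of 55536 genes with counts in the series. They were chosen by gene name: each gene was found as the row whose Ensembl identifier carries that name in the mouse annotation, and each name matched 1 row. All 35 passed the filter on low counts in cerebellum, and 34 passed it in cerebral cortex, where *Rsad2* had too few counts. They fall into 4 MHC class I chains, 3 genes of peptide transport and loading, 3 immunoproteasome subunits, 5 transcriptional regulators, 3 genes of RNA sensing, 11 antiviral effectors, 3 interferon-inducible GTPases and 3 other interferon-induced genes.

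RNA of pieces of cerebellum and cerebral cortex was sequenced from 1-month-old mice of 2 genotypes, with 3 libraries per tissue and genotype. *Snx14*-KO mice were homozygous for a frameshift deletion in *Snx14*, made in C57BL/6J mice and present in all cells of the body. WT mice did not carry it. The mouse number in the labels is shared by the cerebellum and cortex library of 1 mouse, so the 12 libraries come from 3 WT and 3 *Snx14*-KO mice.

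Type I interferons bind the receptor IFNAR and activate factors that include STAT2 and IRF9, which bind the interferon-stimulated response element in the promoters of their targets. Interferon gamma acts on another element and induces MHC class I genes, GTPases and the immunoproteasome, a form of the proteasome whose peptides are carried by TAP into the endoplasmic reticulum and loaded on MHC class I. In brain, microglia, border macrophages, astrocytes and vessel cells hold much of this program, and neurons hold little MHC class I at rest.

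The promoter sequences of the genes are shown first because the letters of the response element join many of these genes without any use of the counts. RefSeq windows of 250 bases before to 50 bases after a transcription start (build GRCm38.p6) were found for 29 of the 35 genes. The core of the interferon-stimulated response element, GAAA followed by 2 bases of any kind and GAAA again, was searched on both strands and stood in a window of 14 of these 29 genes (48.3%), against 1079 of all 27025 genes with a window (3.99%). TTCNNNGAA, the core of the gamma-activated site, stood in 6 of the 29 (20.7%) and in 9.55% of all genes. The genes were chosen as genes of the interferon response, so these shares describe the list and not the libraries. Matches of the first motif are in capitals below for 8 of the genes that held it before the start. Each is shown with 20 bases on either side and read 5′ to 3′ on the strand of the gene. They are not a list of the genes that changed: *B2m*, *Stat2* and *Rsad2* are shown, while *H2-T23*, which also held a match, is not. Where the capitals read TTTC, the motif lies on the other strand.
Ifit1, chr19:34640765-34640833, plus strand: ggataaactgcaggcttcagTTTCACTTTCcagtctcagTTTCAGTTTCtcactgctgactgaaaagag
Isg15, chr4:156200855-156200916, minus strand: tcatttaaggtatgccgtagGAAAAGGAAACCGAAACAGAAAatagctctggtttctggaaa
Bst2, chr8:71537567-71537622, minus strand: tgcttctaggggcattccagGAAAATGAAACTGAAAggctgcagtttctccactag
Ifitm2, chr7:140955978-140956027, minus strand: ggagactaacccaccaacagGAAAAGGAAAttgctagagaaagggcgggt
Gbp3, chr3:142559979-142560034, plus strand: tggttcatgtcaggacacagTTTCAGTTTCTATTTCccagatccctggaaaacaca
Rsad2, chr12:26456543-26456592, minus strand: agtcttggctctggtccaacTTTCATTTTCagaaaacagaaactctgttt
Stat2, chr10:128270256-128270305, plus strand: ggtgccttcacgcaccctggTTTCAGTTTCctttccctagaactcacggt
B2m, chr2:122147528-122147577, plus strand: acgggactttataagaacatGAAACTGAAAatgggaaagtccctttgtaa

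*Isg15* held 3 matches that overlap one another, from 78 to 57 bases before its start. *Ifit1*, *Bst2* and *Gbp3* held 2 each. In *Ifitm3* both matches lay after the start, from base 3 to 12 and from base 20 to 29. *Ifit2* and *Oasl2* held none in these windows, and *Ifit2* held the gamma-activated core from 241 to 233 bases before its start.

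Each library gave gene counts totalling between 16672589 and 19887427, a pair that overlaps several genes being counted for each. *Snx14* was at 63.6 to 67.0 CPM (read pairs of a gene relative to the TMM-normalised library total, on 1 scale for the 12 libraries) in WT cerebella and 10.4 to 11.2 in *Snx14*-KO cerebella. It was at 53.6 to 59.8 CPM in WT and 7.69 to 8.50 in *Snx14*-KO cortices. *Xist* and *Ddx3y* showed that mouse 1 of each genotype was female and mice 2 and 3 male in both tissues, so sex was balanced between the genotypes. Over all genes, deviations from the group mean correlated between the cerebellum and cortex of the same mouse number at 0.111, 0.159 and 0.0731 in WT mice 1, 2 and 3 and at 0.338, 0.0178 and 0.102 in *Snx14*-KO mice 1, 2 and 3. Among *Snx14*-KO mice 2 and 3, both male, the cerebellum of mouse 3 correlated more with the cortex of mouse 2 (0.155) than with its own, and the cerebellum of mouse 2 at 0.0421 with the cortex of mouse 3. Which cerebellum and cortex of these mice belong together is thus known from the labels alone. The 10 cerebellar neuron markers were all called higher in WT cerebellum than in WT cortex and the 8 cortical neuron markers all lower. A gene is called where the log2 fold change, log2(FC), is above 0.5 in size and the adjusted p of edgeR's quasi-likelihood test is below 0.05.

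In WT mice the level of the 35 genes per length of gene spanned more than 3 orders of magnitude on a log10 scale. *B2m*, the light chain of every MHC class I molecule, stood highest at 116 ± 5.01 CPM per kb in cerebellum and 110 ± 5.90 in cortex (SD, n = 3 each). Second was a different gene in each tissue: the classical heavy chain gene *H2-D1* in cerebellum, at 54.9 ± 6.52 CPM per kb, and *Psmb10*, a catalytic subunit of the immunoproteasome, in cortex, at 23.4 ± 2.39. *Ifi27*, coding for a small membrane protein, was at 18.2 ± 4.81 CPM per kb in cerebellum and 11.6 ± 0.379 in cortex.

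*Ifitm3* and *Ifitm2*, membrane proteins that restrict virus entry, were at 12.1 ± 0.716 and 10.8 ± 2.51 CPM per kb in cerebellum. In cortex they were at 6.60 ± 1.496 and 8.75 ± 0.990. In WT cerebellum *Ifitm3*, *Psmb10* (11.8 ± 1.17 CPM per kb) and *Ifitm2* lay within their spread of each other, and in WT cortex *Psmb10* stood clear of the next gene, *H2-D1* (13.1 ± 1.45). At the low end stood *Nlrc5*, the transactivator of MHC class I genes, at 0.0754 ± 0.0432 in cerebellum and 0.0892 ± 0.0374 in cortex, from 2 to 22 read pairs per library over both genotypes.

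The immunoproteasome subunits replace constitutive ones, and levels per length were compared within the 3 pairs. The length counts every annotated exon of a gene, so differences between the pairs also depend on the annotation. *Psmb8* had 21 to 81 and *Psmb9* 7 to 37 read pairs per library over both genotypes and tissues. *Psmb10* made up 18.9%, 17.4% and 21.1% of the sum of *Psmb10* and *Psmb7* per length in the WT cerebella and 37.0%, 34.4% and 38.7% in the WT cortices. *Psmb8* was 0.543% to 0.904% of its sum with *Psmb5* in WT cerebella, and *Psmb9* 0.206% to 0.594% of its sum with *Psmb6*. In *Snx14*-KO cerebella the *Psmb9* share was 0.339%, 0.523% and 1.23% in mice 1, 2 and 3, the *Psmb8* share 0.677%, 0.862% and 1.31%, and the *Psmb10* share 22.3%, 19.0% and 18.3%. The high values of *Psmb8* and *Psmb9* belong to mouse 3, where the *Psmb10* share was the lowest of the 3.

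WT cerebellum and cortex were compared to show where the genes are expressed before the genotypes are set against each other. Of the 35 genes, 9 were called higher in cerebellum and 4 lower, against 19% and 21.4% of all 18543 genes tested. The median log2(FC), cerebellum against cortex, was 0.28 over the 35 genes and 0.02 over all genes. DESeq2 called 7 higher and 3 lower (13.7% and 16.8% of all genes). Without WT mouse 1 edgeR called 9 higher and 3 lower (18.4% and 20.4% of all genes), without mouse 2 it called 4 and 3 (16.6% and 20%), and without mouse 3 it called 4 and 4 (17.4% and 20.5%). With the mouse as a block it called 9 higher and 4 lower, the same genes (18.9% and 21.3% of all genes).

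*H2-D1* showed the widest gap. It was at 151, 152 and 122 CPM in the WT cerebella of mice 1, 2 and 3, and at 30.3, 37.7 and 33.0 CPM in their cortices. The tissues did not overlap, and the log2(FC) was 2.07 (SE 0.107, adjusted p = 5.5e-08). The other classical heavy chain gene, *H2-K1*, was at 24.3, 31.0 and 25.8 CPM in cerebellum and 19.9, 19.3 and 18.0 CPM in cortex, a log2(FC) of 0.51 (SE 0.109, adjusted p = 0.00245) that lies just past the fold threshold and fell below it with DESeq2, with RLE normalization, without the filter on low counts and without WT mouse 2 or 3. *B2m*, which pairs with both, lay close together in both tissues, at 95.3, 104 and 101 CPM in cerebellum and 95.7, 99.5 and 89.4 CPM in cortex (log2(FC) 0.08, SE 0.0679, adjusted p = 0.340). Of the annotated transcripts of *H2-D1*, 3.59% of 100-base stretches are found letter for letter in other genes, among them *H2-Q1* and *H2-T23*, and of *H2-K1* 0.957%. Reads that map to several places were left out of the counts.

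*Stat2*, a transcription factor of type I signalling, was at 41.4, 41.5 and 37.5 CPM in WT cerebella and 18.4, 19.6 and 17.0 CPM in WT cortices. These values lie far apart for the small spread within a tissue (log2(FC) 1.13, SE 0.0882, adjusted p = 1.42e-06). *Rsad2*, coding for the antiviral enzyme viperin, was at 1.11, 0.692 and 0.966 CPM in cerebellum and 0.425, 0.322 and 0.398 CPM in cortex. That is a log2(FC) of 1.27 (SE 0.392, adjusted p = 0.0179) from 6 to 20 read pairs per library, and DESeq2 did not call it (adjusted p = 0.124). *Tap1* and *Tap2*, the subunits of the peptide transporter, were called higher in cerebellum with log2(FC) of 0.88 and 0.80, *Ifitm3* with 0.88, *Ifi27* with 0.65 and *Ifit3* with 0.63. These calls do not all hold with 1 mouse left out, as only 4 of the 35 genes were called higher without WT mouse 2 and 4 without WT mouse 3.

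Lower in cerebellum was *Ifit2*, which binds viral RNA, at 5.61, 7.50 and 5.15 CPM against 13.5, 16.3 and 17.4 CPM in cortex. The log2(FC) was -1.37 (SE 0.171, adjusted p = 5.61e-05), opposite in sign to that of its neighbour *Ifit3*, although both lie within a cluster of *Ifit* genes on chromosome 19. *Psmb10* was at 21.6, 17.8 and 20.8 CPM in cerebellum and 36.8, 38.5 and 44.6 CPM in cortex (log2(FC) -0.99, SE 0.104, adjusted p = 1.5e-05). *H2-T23*, a nonclassical chain known as Qa-1 that presents leader peptides of other class I chains, was at 6.84, 8.83 and 7.36 CPM in cerebellum and 11.5, 12.7 and 16.8 CPM in cortex (log2(FC) -0.83, SE 0.173, adjusted p = 0.00201). The fourth gene called lower was the transcription factor *Irf1*, at -0.63 (SE 0.198, adjusted p = 0.0199), which DESeq2 did not call (adjusted p = 0.0659).

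Cell type markers differed between the WT tissues as well. All 10 microglia markers were called lower in cerebellum (median log2(FC) -1.59), while the 10 meningeal fibroblast markers were all higher, 6 of them called (median 0.81), and of 6 astrocyte markers 3 were called higher and 1 lower. Their part in the tissue differences of the 35 genes was not tested, and in whole tissue fewer cells of a type and less RNA per cell cannot be told apart.

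**Figure D1:**
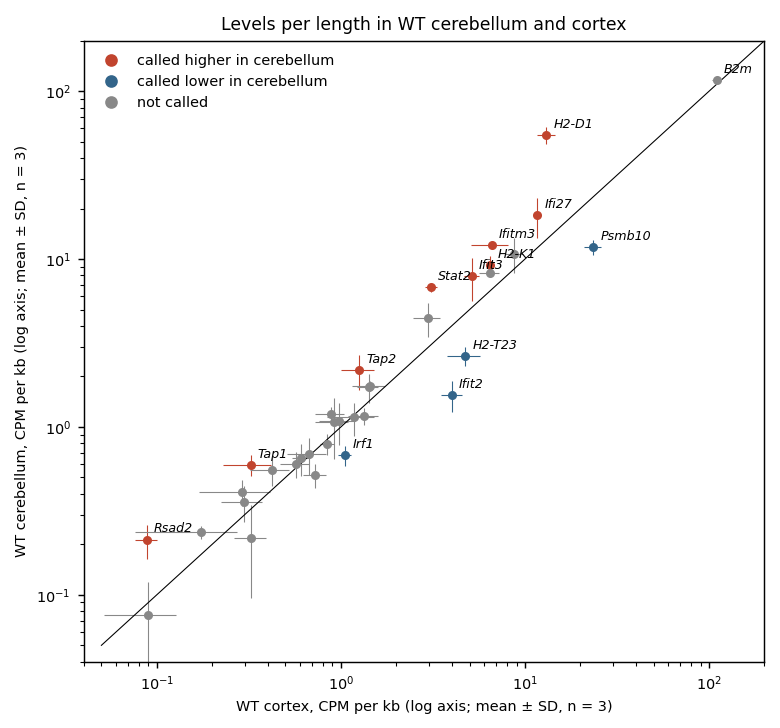
Mean level per length of each of the 35 genes in WT cortex (horizontal, CPM per kb, log axis) and WT cerebellum (vertical, CPM per kb, log axis), with SD over 3 mice as bars and the line of equal levels. *B2m* lies on the line at the top, *H2-D1* well above it, and *Psmb10*, *H2-T23*, *Ifit2* and *Irf1* below it.

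In *Snx14*-KO cerebella, 32 of the 35 genes had a higher fitted level than in WT and 3 a lower one (*Stat2*, *H2-D1* and *Xaf1*), where 49.9% of all 18201 genes tested were higher. The median log2(FC) was 0.56 over the 35 genes and -0.0006 over all genes. No gene of the 35 was called by edgeR's quasi-likelihood test, where 0% of all genes were called higher, and the smallest adjusted p was 0.176. At an unadjusted p under 0.05 there were 13, all higher, while 5.78% of all genes were higher at that level. DESeq2 called 3, *Ifitm3*, *Ifitm2* and *Ifit2*, against 0.846% of all genes called higher. EdgeR without the filter on low counts called 6, *Oasl2*, *Ifitm2*, *Ifitm3*, *Bst2*, *Ifit2* and *Ifit3*, against 1.05% of all genes.

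In 10 genes the *Snx14*-KO cerebella all lay above the WT cerebella, which was so for 6.22% of all genes tested. These were *Ifitm2*, *Ifitm3*, *Bst2*, *Ifit2*, *Isg15*, *Oasl2*, *Gbp3*, *H2-T23*, *Tapbp* and *Ifi35*. In none did they all lie below (6.32% of all genes). The heat map of all libraries shows, however, that 1 library carries much of the difference: 28 of the 35 genes (80%) had their highest cerebellar level in *Snx14*-KO mouse 3, where 17.6% of all genes did.

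**Figure D2:**
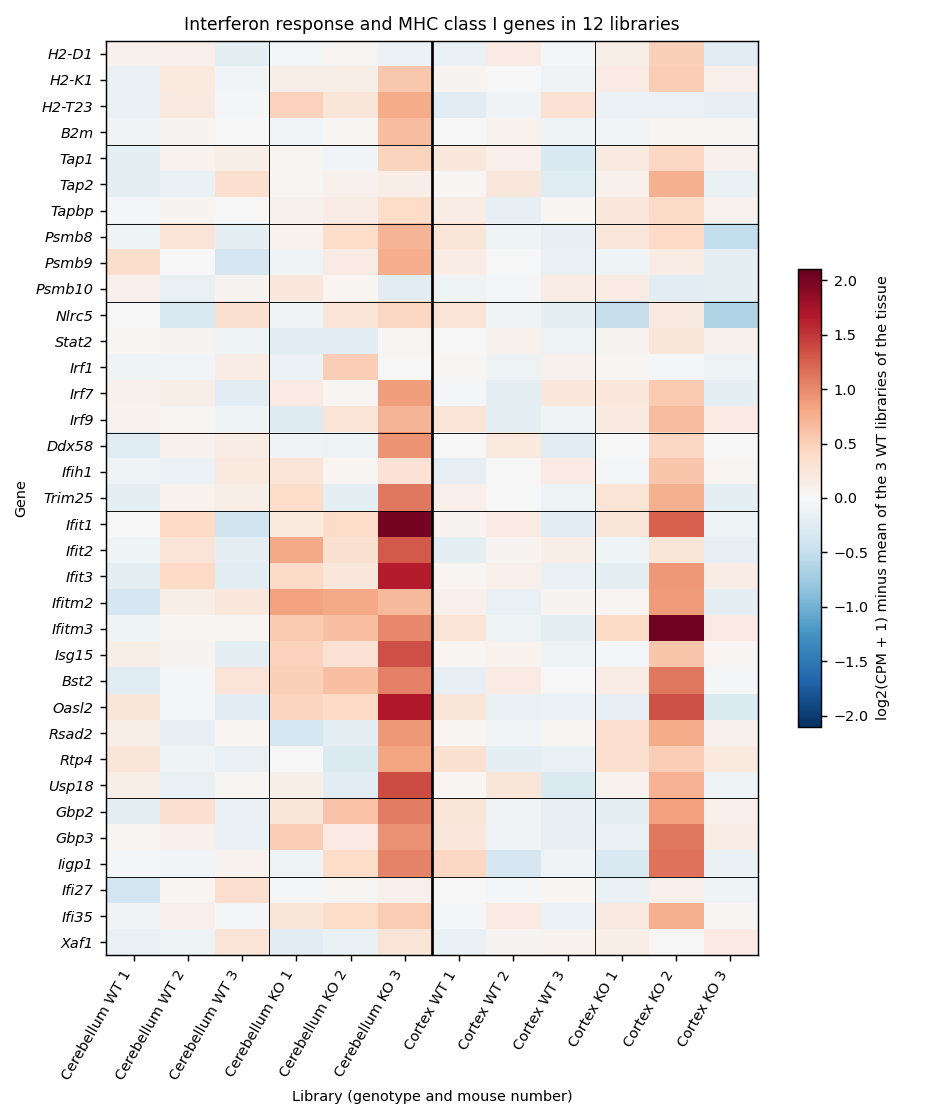
Level of the 35 genes (rows, grouped by role) in the 12 libraries (columns), as log2(CPM + 1) minus the mean of the 3 WT libraries of the same tissue, red for higher and blue for lower. The cerebellum of *Snx14*-KO mouse 3 and the cortex of *Snx14*-KO mouse 2 stand out as red columns, and the library of the other tissue with the same mouse number does not.

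The antiviral effectors had the highest median of the 8 role groups. All 11 were higher in *Snx14*-KO cerebella, 8 at an unadjusted p under 0.05, with a median log2(FC) of 0.94. Without mouse 3, 8 of the 11 were higher, 4 of them at that level (3.27% of all genes), and the median was 0.58. *Ifitm3* was at 7.67, 8.54 and 8.48 CPM in the WT cerebella and 12.5, 13.3 and 17.6 CPM in the *Snx14*-KO cerebella of mice 1, 2 and 3. Every *Snx14*-KO library was above every WT library, and mouse 3 was the highest. The log2(FC) was 0.83 (SE 0.160, unadjusted p = 0.000542, adjusted p = 0.176), the smallest p among the 35, and DESeq2 called it (adjusted p = 0.00475).

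*Ifitm2* was at 5.23, 7.62 and 8.38 CPM in WT and 13.2, 12.7 and 11.8 CPM in *Snx14*-KO cerebella. Here mouse 3 was the lowest of the *Snx14*-KO mice, unlike in most of these genes, and the groups lay apart. The log2(FC) was 0.84 (SE 0.180, adjusted p = 0.204; DESeq2 adjusted p = 0.0118), and without mouse 3 it was 0.88. Of the exon bases of *Ifitm2*, 40.9% are also exon sequence of *Gm45717*, and read pairs there were counted for both.

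*Bst2*, coding for tetherin, which holds budding virus at the cell surface, was at 3.17, 3.87 and 4.99 CPM in WT and 5.98, 6.67 and 9.26 CPM in *Snx14*-KO cerebella. The groups did not overlap and mouse 3 was highest (log2(FC) 0.88, SE 0.238, adjusted p = 0.331). *Ifit2* was at 5.61, 7.50 and 5.15 CPM in WT and 11.2, 7.72 and 16.2 CPM in *Snx14*-KO cerebella. Its lowest *Snx14*-KO value, in mouse 2, was close to the highest WT value, and the log2(FC) was 0.96 (SE 0.266, adjusted p = 0.343; DESeq2 adjusted p = 0.0321). Without *Snx14*-KO mouse 2 it was 1.18 and edgeR called it (adjusted p = 0.0421), where 1.31% of all genes were called higher.

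*Oasl2*, a member of the oligoadenylate synthetase family, was at 2.89, 2.19 and 1.77 CPM in WT and 3.44, 3.36 and 9.48 CPM in *Snx14*-KO cerebella. *Isg15*, a ubiquitin-like modifier, was at 1.501, 1.38 and 1.02 CPM in WT and 2.20, 1.82 and 4.87 CPM in *Snx14*-KO cerebella. In both genes mouse 3 was far above the other *Snx14*-KO mice, which themselves lay slightly above WT. The log2(FC) of *Oasl2* was 1.26 (SE 0.422, adjusted p = 0.430) and 0.58 without mouse 3, and that of *Isg15* was 1.20 (SE 0.406, adjusted p = 0.438) and 0.63 without it.

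*Ifit1*, which binds foreign RNA caps, had the largest fold change of the 35 genes. It was at 2.72, 3.98 and 1.77 CPM in WT and 3.30, 3.86 and 14.0 CPM in *Snx14*-KO cerebella. Mice 1 and 2 were within the WT range, so the log2(FC) of 1.34 (SE 0.549, adjusted p = 0.562) fell to 0.35 without mouse 3. *Ifit3*, *Usp18*, which removes ISG15 from proteins, *Rtp4* and *Rsad2* had the same pattern, with mouse 3 highest and the other *Snx14*-KO mice within the WT range or below it, apart from *Usp18* in mouse 1, at 1.34 CPM just above the highest WT value of 1.33 CPM. Without mouse 3 their log2(FC) went from 0.94 to 0.31, from 0.98 to -0.073, from 0.36 to -0.20 and from 0.44 to -0.70. Of the 100-base stretches of *Ifit3*, 31.7% are also found in its near copy *Ifit3b*.

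**Figure D3:**
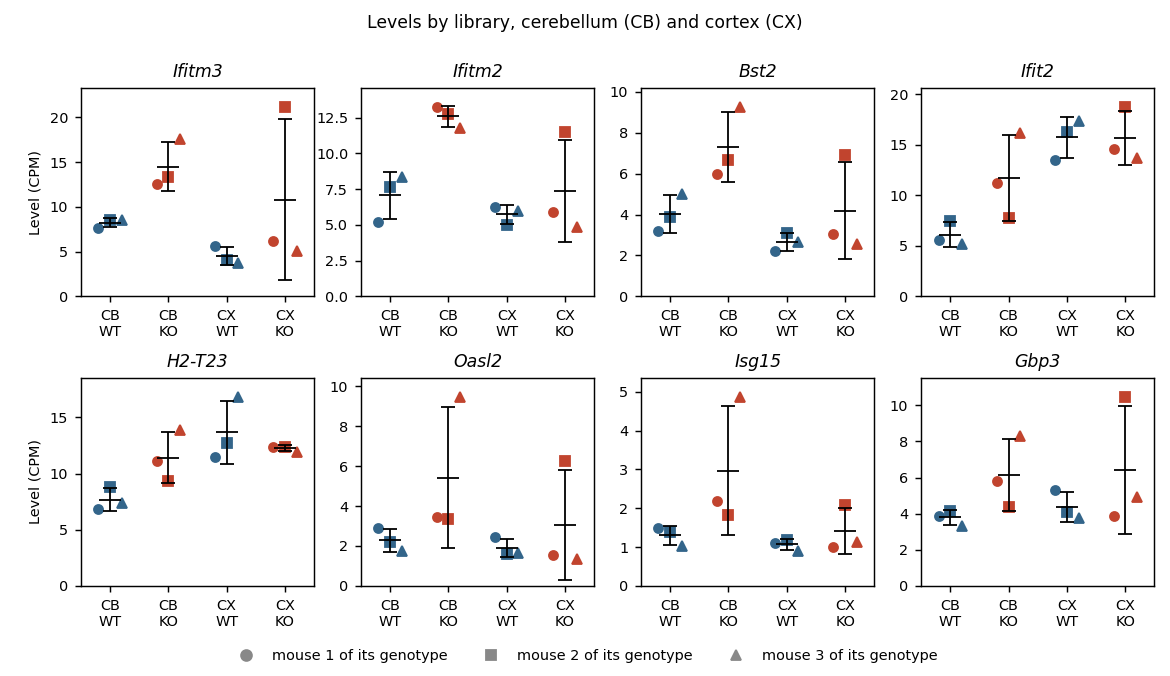
Level (CPM) of the 8 genes with the smallest p in cerebellum, in each library of WT (blue) and *Snx14*-KO (red) cerebellum (CB) and cortex (CX), with the mouse number as marker shape, and mean ± SD over 3 mice in black. In cerebellum the *Snx14*-KO points lie above the WT points in all 8 genes, while in cortex *Snx14*-KO mouse 2 is the highest point in all but *H2-T23*.

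Of the interferon-inducible GTPases, which attack the membranes around intracellular pathogens, all 3 were higher in *Snx14*-KO cerebella, *Gbp2* and *Gbp3* at an unadjusted p under 0.05 (median log2(FC) 0.82, and 0.43 without mouse 3, with no p under 0.05). *Gbp3* was at 3.89, 4.15 and 3.33 CPM in WT and 5.83, 4.36 and 8.29 CPM in *Snx14*-KO cerebella. The groups did not overlap, though mouse 2 was near the highest WT value (log2(FC) 0.72, SE 0.248, adjusted p = 0.455, and 0.43 without mouse 3). *Gbp2* had a log2(FC) of 0.86 and *Iigp1* of 0.82, and mouse 3 was the highest library for both.

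MHC class I chains had smaller fold changes, with a median log2(FC) of 0.28, and of 0.060 without mouse 3. *H2-T23* was at 11.1, 9.32 and 13.9 CPM in *Snx14*-KO cerebella, all above the WT values given before (log2(FC) 0.59). *B2m* was at 96.4, 101 and 158 CPM in *Snx14*-KO cerebella. Mice 1 and 2 lay at the WT level of 95.3 to 104 CPM and mouse 3 far above it, so the log2(FC) was 0.26 (SE 0.171, adjusted p = 0.804) with mouse 3 and -0.015 without it. *H2-K1* was at 29.4, 29.3 and 40.2 CPM, with the same excess in mouse 3 (log2(FC) 0.30, SE 0.148, adjusted p = 0.678, and 0.12 without mouse 3).

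*H2-D1* did not share that excess: it was at 136, 145 and 129 CPM in *Snx14*-KO cerebella, mouse 3 being the lowest (log2(FC) -0.033, SE 0.0910, adjusted p = 0.972). Of peptide transport and loading, *Tapbp*, the tapasin that bridges TAP and class I, was at 29.0, 30.9 and 29.6 CPM in WT and 31.8, 33.5 and 39.1 CPM in *Snx14*-KO cerebella (log2(FC) 0.23, SE 0.0980, adjusted p = 0.571, and 0.13 without mouse 3). The groups lay apart by a small margin, and 29.0% of the exon bases of *Tapbp* belong to another gene as well. *Tap1* and *Tap2* had log2(FC) of 0.22 and 0.093. The immunoproteasome subunits had 0.56 (*Psmb8*), 0.62 (*Psmb9*) and 0.039 (*Psmb10*), none at an unadjusted p under 0.05, with a median of 0.56 that was 0.14 without mouse 3.

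No transcriptional regulator and no RNA sensor had an unadjusted p under 0.05 in cerebellum. *Stat2* was at 34.3, 34.1 and 41.4 CPM in *Snx14*-KO cerebella against 37.5 to 41.5 CPM in WT, so mice 1 and 2 were below every WT library and mouse 3 among them (log2(FC) -0.12, SE 0.0968, adjusted p = 0.873). *Irf7*, the amplifier of type I interferon production, had a log2(FC) of 0.58, *Nlrc5* of 0.46, *Irf9* of 0.34 and *Irf1* of 0.22. The RNA sensors *Ddx58* (RIG-I), *Ifih1* (MDA5) and *Trim25*, the ubiquitin ligase that activates RIG-I, had 0.41, 0.26 and 0.63. All 3 were highest in mouse 3, and without it they had -0.12, 0.19 and 0.14, while the median of the 5 regulators went from 0.34 to 0.14. Of the last group, *Ifi35* stood at 0.56 with separate groups, while *Ifi27* (0.010) and *Xaf1* (-0.022) lay near 0.

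Leaving out *Snx14*-KO mouse 3 lowered the median log2(FC) in cerebellum from 0.56 to 0.14, with 25 genes higher and 10 lower, against 48.9% of all genes higher. Leaving out another library instead kept the median between 0.47 and 0.71. Without mouse 3, 10 of the 35 genes lay above every WT cerebellum in both remaining *Snx14*-KO mice (9.17% of all genes) and 2, *Stat2* and *Rsad2*, below (9.97%). The 10 are those that lay apart with mouse 3, for which this outcome follows from the former, and no other gene joined them. Within the male mice alone, mice 2 and 3 of each genotype, the median was 0.62 with no gene called. This split was added after the data were seen.

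**Figure D4:**
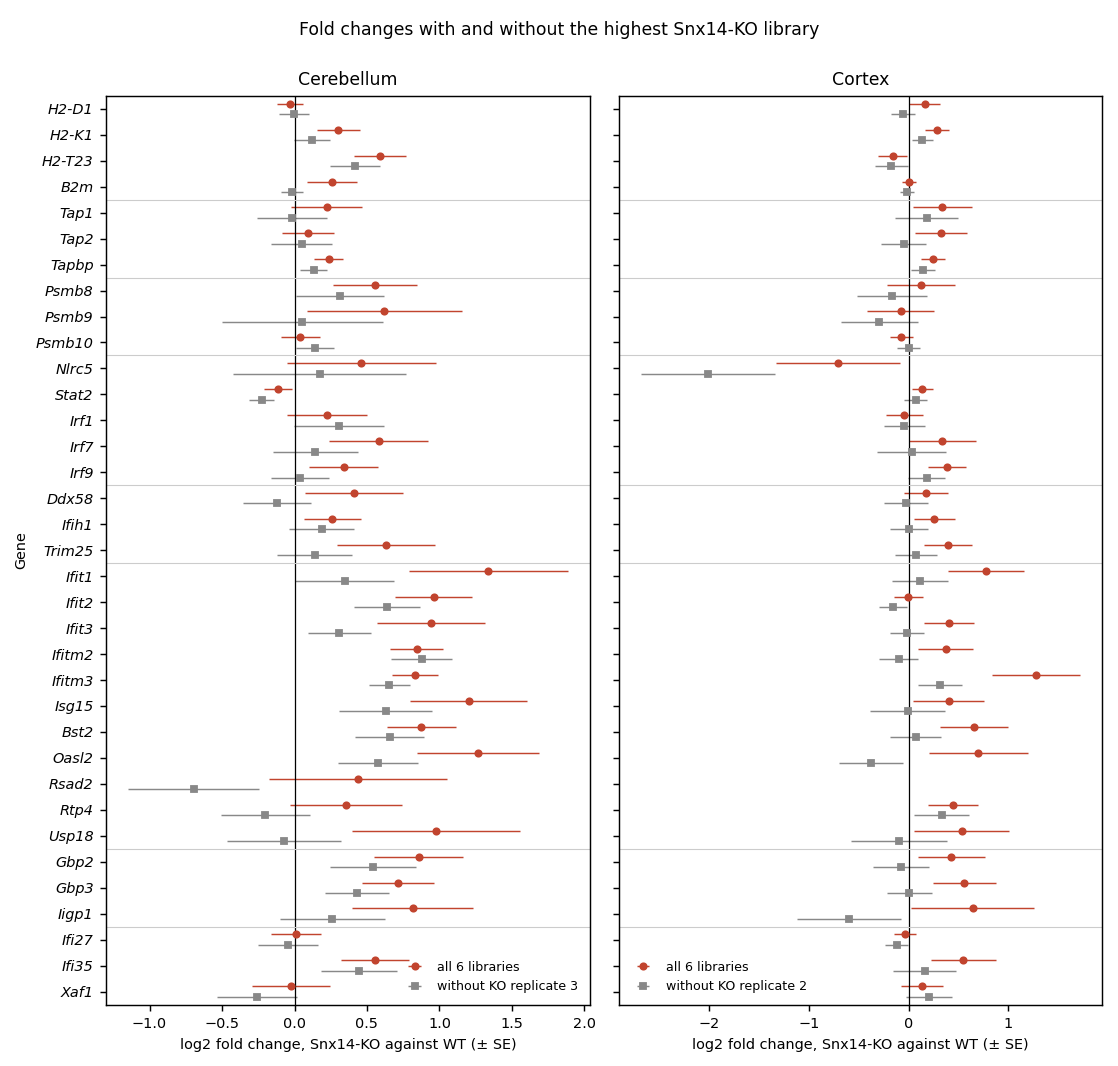
Log2(FC) of *Snx14*-KO against WT with SE for each gene in cerebellum (left) and cortex (right), from all 6 libraries (red circles) and without the highest *Snx14*-KO library (grey squares: mouse 3 in cerebellum, mouse 2 in cortex). The medians go from 0.56 to 0.14 in cerebellum and from 0.33 to -0.011 in cortex; *Rsad2* was not tested in cortex.

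In *Snx14*-KO cortices, 27 of the 34 genes tested were higher and 7 lower (50% of all 18255 genes higher), with a median log2(FC) of 0.33 against 0.0001 over all genes. None was called by edgeR's quasi-likelihood test (0% of all genes called higher), the smallest adjusted p was 0.996, and 2 genes had an unadjusted p under 0.05, both higher (2.24% of all genes). DESeq2 called none of the 17 genes for which it gave an adjusted p (0.0152% of all genes called higher), and edgeR without the filter on low counts called *Ifitm3* (0.269% of all genes). Again 1 library stood out, labelled with another mouse number: 27 of the 34 genes (79.4%) were highest in *Snx14*-KO mouse 2, against 22.9% of all genes. Without that library the median was -0.011, with 16 genes higher and 18 lower, against 49% of all genes higher.

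*Ifitm3* was at 5.63, 4.03 and 3.76 CPM in WT cortices and 6.13, 21.2 and 5.07 CPM in *Snx14*-KO cortices. Mouse 2 was far above all other cortices, and the groups overlapped (log2(FC) 1.28, SE 0.446, unadjusted p = 0.0142). Without mouse 2 the log2(FC) was 0.32. *H2-K1* was the only tested gene of the 34 with separate groups in cortex (4.57% of all genes were higher in this way): it was at 21.6, 27.6 and 20.5 CPM in *Snx14*-KO against 18.0 to 19.9 CPM in WT cortices. The log2(FC) was 0.28 (SE 0.124, unadjusted p = 0.0402), and 0.14 without mouse 2.

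*Ifit1* was at 2.55, 2.85 and 1.88 CPM in WT and 3.06, 7.13 and 2.21 CPM in *Snx14*-KO cortices (log2(FC) 0.78, SE 0.379, unadjusted p = 0.0633, and 0.11 without mouse 2). *Irf9*, the DNA-binding partner of STAT2, was at 9.56, 6.50 and 7.29 CPM in WT and 8.88, 12.7 and 8.82 CPM in *Snx14*-KO cortices (log2(FC) 0.38, SE 0.192, unadjusted p = 0.0692, and 0.18 without mouse 2). *Tapbp* was at 26.0, 20.3 and 23.5 CPM in WT and 27.3, 31.1 and 24.4 CPM in *Snx14*-KO cortices (log2(FC) 0.24, SE 0.119, unadjusted p = 0.0637, and 0.15 without mouse 2). In all 3 the groups overlapped and mouse 2 was highest.

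The excess of mouse 2 was not limited to these genes. The 11 antiviral effectors, *Ifitm3* and *Ifit1* among them, summed to 98.86 CPM in that cortex and 45.01 to 47.95 CPM in the other cortices. The 3 interferon-inducible GTPases summed to 19.04 CPM there and 6.44 to 10.04 CPM in the others. The 3 immunoproteasome subunits showed no excess in sum, at 38.73 CPM against 37.14 to 49.08 CPM. In *B2m*, *Ifit2* and *H2-T23* the excess was small or missing. *B2m* was at 91.5, 97.3 and 96.6 CPM in *Snx14*-KO cortices, within the WT range of 89.4 to 99.5 CPM. *Ifit2* was at 14.6, 18.8 and 13.7 CPM, with mouse 2 just above the highest WT value of 17.4 CPM and a log2(FC) of -0.0029, and *H2-T23* at 12.4, 12.4 and 11.9 CPM, a log2(FC) of -0.16. *Rsad2*, which was not tested, was at 0.750, 1.37 and 0.477 CPM in *Snx14*-KO cortices, above the WT values and highest in mouse 2, from 8 to 25 read pairs.

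Whether the genotype difference is larger in cerebellum than in cortex was asked with an interaction term in a fit of the 12 libraries. None of the 35 genes was called (0% of all 19380 genes were called), 2 had an unadjusted p under 0.05, and the median difference in log2(FC), cerebellum minus cortex, was 0.21 over the 35 genes and -0.0043 over all genes. Its direction depended on which mouse was left out. Without both libraries of *Snx14*-KO mouse 3 the median was -0.29, with 28 of the 35 genes lower (49.9% of all genes). Without both libraries of *Snx14*-KO mouse 2 it was 0.62, with 31 higher (49.6% of all genes). Each of these fits leaves out 1 high library and keeps the other. With both high libraries left out instead, the median kept the direction of the full fit, as given below. The 2 genes were *H2-T23*, with a difference of 0.73 (SE 0.243, unadjusted p = 0.00906, adjusted p = 0.589), and *Ifit2*, with 0.95 (SE 0.325, unadjusted p = 0.0113, adjusted p = 0.628), both larger in cerebellum, as 3.97% of all genes were at that level. DESeq2 called none of the 35, and edgeR without the filter on low counts called *Ifit2* (1.08% of all genes called higher). Without *Snx14*-KO mouse 2 *Ifit2* was called as well (adjusted p = 0.0303, 1.23% of all genes called higher). *Stat2* came next with -0.27 (SE 0.141, adjusted p = 0.954).

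By the labels, the high cerebellum and the high cortex come from different *Snx14*-KO mice, those for which the correlations given before were not highest for the same number. The mean over the 35 genes of log2(CPM + 1), relative to the mean of the 6 libraries of a tissue, was -0.23, -0.13 and -0.19 in WT cerebella and -0.022, -0.0042 and 0.57 in *Snx14*-KO cerebella of mice 1, 2 and 3. In cortex it was -0.026, -0.11 and -0.16 in WT and -0.044, 0.49 and -0.15 in *Snx14*-KO mice. The mouse labelled 3 was thus high in cerebellum and among the lowest in cortex, and that labelled 2 was high in cortex and close to mouse 1 in cerebellum. In cerebellum even the lower *Snx14*-KO values lay above the WT values, whereas in cortex they lay among them.

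**Figure D5:**
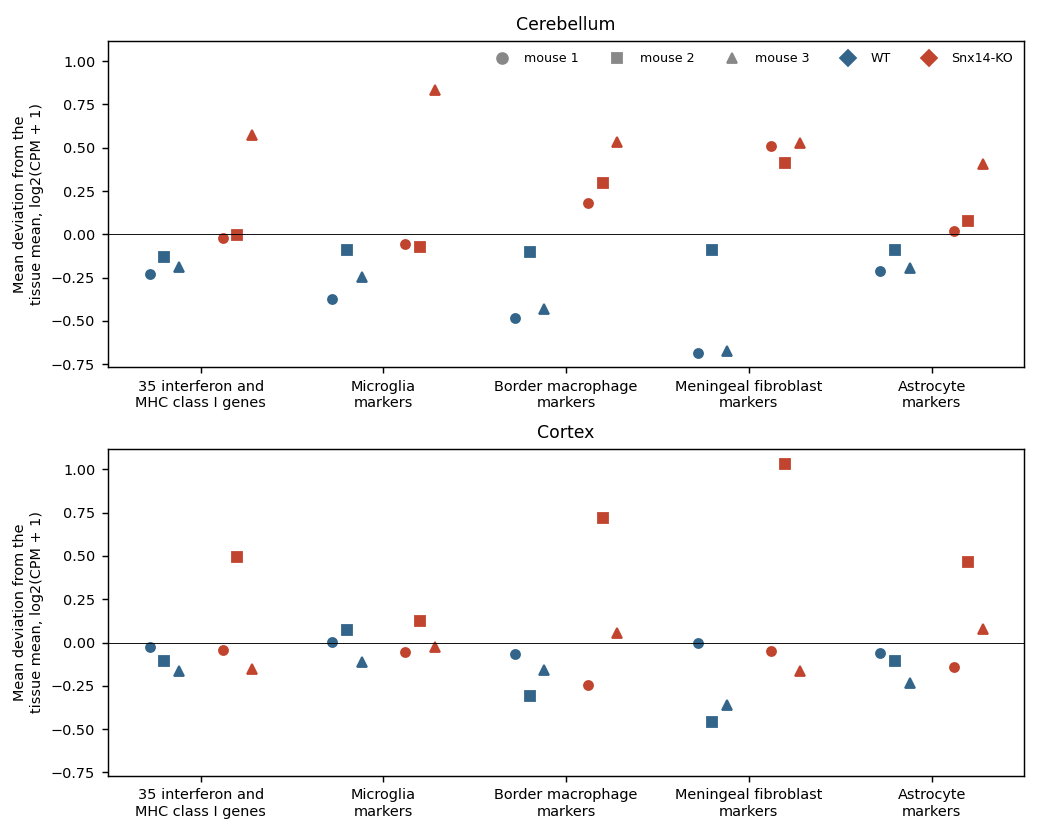
Mean deviation of log2(CPM + 1) from the mean of the 6 libraries of a tissue, over the 35 genes and over 4 lists of cell type markers, for each library (marker shape: mouse number; blue WT, red *Snx14*-KO). In cerebellum *Snx14*-KO mouse 3 is highest for the 35 genes and all 4 marker lists, by a narrow margin for meningeal fibroblasts, and in cortex *Snx14*-KO mouse 2 is highest for all 5, by a narrow margin for microglia.

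Markers of some other cells were higher in these libraries. The 10 endothelial markers were not the highest there. They summed to 164 CPM in the cerebellum of *Snx14*-KO mouse 3 (154 to 209 CPM in the other cerebella). In the cortex of *Snx14*-KO mouse 2 they summed to 177 CPM (131 to 185 CPM in the other cortices). The 10 mural markers summed to 231 CPM (164 to 242 CPM) and 189 CPM (125 to 182 CPM) in the same order. The 10 microglia markers summed to 460 CPM in the cerebellum of *Snx14*-KO mouse 3 and to 176 to 213 CPM in the other cerebella. In the cortex of *Snx14*-KO mouse 2 they summed to 558 CPM, against 454 to 530 CPM in the other cortices. The 8 border macrophage markers summed to 31.8, 33.5 and 49.6 CPM in *Snx14*-KO cerebella and 14.7 to 22.9 CPM in WT cerebella, and to 69.1 CPM in the cortex of *Snx14*-KO mouse 2 and 19.3 to 28.9 CPM in the other cortices. Microglia markers were thus far above the other libraries only in the cerebellum of mouse 3. Border macrophage markers were far above the other libraries in the cortex of mouse 2. In cerebellum these markers were above WT in every *Snx14*-KO mouse and highest in mouse 3. Their part in the values of the 35 genes was not tested.

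The 10 meningeal fibroblast markers summed to 236 to 251 CPM in all *Snx14*-KO cerebella against 106 to 160 CPM in WT. In cortex the sum was 197 CPM in *Snx14*-KO mouse 2 and 52.2 to 81.8 CPM in the others. *Gfap*, the filament of reactive astrocytes, was at 373, 442 and 912 CPM in *Snx14*-KO and 276 to 309 CPM in WT cerebella, and at 1047 CPM in the cortex of *Snx14*-KO mouse 2 against 147 to 262 CPM elsewhere. The 6 astrocyte markers, *Gfap* among them, summed to 5912 CPM in the cerebellum of *Snx14*-KO mouse 3 against 4248 to 5159 CPM in the other cerebella, but in the cortex of *Snx14*-KO mouse 2 to 5765 CPM, within the 5077 to 5870 CPM of the other cortices. In that cortex *Gfap*, *Aqp4* and *Gja1* were at their highest and *Slc1a2*, the most abundant of the 6, at its lowest (3318 CPM against 3792 to 4344 CPM). The 8 neutrophil and monocyte markers were highest in cerebellum in *Snx14*-KO mouse 2, at 9.81 CPM in sum, a mouse whose 35 genes were near those of mouse 1. The part of these markers in the results was not tested. By median log2(FC) in *Snx14*-KO cerebella, neutrophil and monocyte markers were at 1.60 (4 of 4 tested higher), meningeal fibroblast markers at 1.15 (10 of 10), border macrophage markers at 1.07 (7 of 7) and microglia markers at 0.48 (10 of 10), beside 0.56 for the 35 genes. Without mouse 3 these medians were 1.72, 1.03, 0.84 and 0.18. None of these markers was called by edgeR, and DESeq2 called 1, 8, 2 and 1 of them, where 0.846% of all genes were called higher. Endothelial markers were at 0.25 (8 of 10 higher), mural markers at 0.17 (7 of 10) and cerebellar neuron markers at -0.21 (0 of 10). Of the 8 T and NK cell and 5 B cell markers, 1 each had enough counts, and both were higher, with no call.

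The rest of the pathway was taken from lists chosen by function, 133 genes that include interferons, their receptors and further targets, of which 99 were tested in cerebellum. Of the 20 interferon genes none had enough counts to be tested in any comparison, 18 had no read pair in any cerebellum and 18 none in any cortex, and no library held more than 1 read pair of any of them. A count of 0 says only that none was detected at this depth. Among the interferon receptors *Ifnar1* was at 36.2 to 41.4 CPM in WT and 39.6 to 41.4 CPM in *Snx14*-KO cerebella, and 0 of 5 tested receptors had an unadjusted p under 0.05 in either tissue.

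Of the 14 genes of signal transduction and feedback, 12 were higher in *Snx14*-KO cerebella (median log2(FC) 0.13), with *Irf8* and *Ptpn6*, both of them also expressed in microglia, at an unadjusted p under 0.05. Of 44 further interferon-stimulated genes tested, 41 were higher in cerebellum (median 0.43) and 10 had an unadjusted p under 0.05, all higher, with *Ifitm1* at 1.03 (SE 0.293) and *Gbp6* at 0.94 (SE 0.267) having the smallest p. Without mouse 3, 28 of the 44 were higher (median 0.14). In cortex 35 of 43 were higher (median 0.16), and 18 of 43 without mouse 2 (median -0.020). The 15 further MHC class I pathway genes had a median of 0.11 in cerebellum and 11 nucleic acid sensors one of 0.17, with no gene under 0.05. The mean deviation of the sensors from the tissue mean was 0.42 in mouse 3, -0.090 and -0.063 in *Snx14*-KO mice 1 and 2, and -0.17 to -0.010 in WT. For signal transduction and feedback it was 0.25 in mouse 3, -0.012 and 0.0047 in *Snx14*-KO mice 1 and 2, and -0.11 to -0.029 in WT. Of all these genes edgeR called none.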

How the data were processed

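RNA-Seq read pairs of 12 libraries were trimmed by the authors, mapped to the mouse genome GRCm38 with STAR and counted per gene with featureCounts (Subread 2.0.1, per the labels), ignoring strand, counting a pair for every gene it overlapped and leaving out pairs that map to several places. The deposited counts are not normalised. Rows other than the 55536 annotated genes were left out: empty spike-in rows, and features with a bare number as name, whose counts came to 0.0506% to 0.0632% of those on genes. Gene names came from GENCODE vM21.

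Genotypes were compared per tissue, and WT tissues and the interaction likewise, with edgeR's quasi-likelihood test (edgeR 4.0.16, TMM, filterByExpr, R 4.3.3), adjusted over all genes tested by Benjamini-Hochberg. DESeq2 1.42.0 was the main alternative. The SE is the absolute log2 fold change over the square root of F. The script was tested on simulated data. Summed gene counts of 16672589 to 19887427 per library set the counting precision. The labels name separate mice, and no libraries were identical. List scores used log2(CPM + 1). The genes and lists were chosen with earlier results of these data known, and the genes given in full were the 8, 5 and 3 with the smallest p in cerebellum, cortex and interaction, the 6 highest per length, and the 3 largest tissue differences in each direction. Where a mouse number joins WT and *Snx14*-KO libraries, it is only a number: deviations of same-numbered libraries correlated at -0.0309 to 0.0736 in cerebellum and -0.0917 to 0.0811 in cortex. The cerebellum and cortex of a mouse share the animal per the labels, and their deviations correlated at 0.0178 to 0.338 within a mouse number.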

Additional observations from a re-analysis of the deposited data

How the results depend on the processing

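With the replicate number as a block (the mouse as labelled, for the tissue and interaction fits), the medians were 0.51 in cerebellum, 0.29 in cortex, 0.19 for the interaction and 0.28 between WT tissues. There were 0, 0, 0 and 13 genes called, where 18.9% of all genes were called higher and 21.3% lower between WT tissues and no more than 0.00549% in the others. The replicate block changed no call. For the interaction it rests on the labels alone for *Snx14*-KO mice 2 and 3. In cerebellum DESeq2 called 3 and testing without a filter on low counts called 6; without the filter 1 was called in cortex (*Ifitm3*) and 1 for the interaction (*Ifit2*). The cause was not tested. With single libraries left out, 0 to 1 genes were called in cerebellum (the 1 without *Snx14*-KO mouse 2) and 0 in cortex. For the interaction and between WT tissues, both libraries of a mouse were left out at a time. For the interaction 0 to 1 genes were called (the 1, *Ifit2*, without *Snx14*-KO mouse 2, where 1.23% of all genes were called higher). Between WT tissues 7 to 12 were called (7 without WT mouse 2, where 16.6% of all genes were called higher and 20% lower, and 8 without mouse 3, with 17.4% and 20.5%). The medians then ran from 0.14 (without *Snx14*-KO mouse 3) to 0.71 in cerebellum, from -0.011 (without mouse 2) to 0.48 in cortex, from -0.29 (without mouse 3) to 0.62 (without mouse 2) for the interaction, and from 0.16 to 0.31 between WT tissues. Leaving out both high *Snx14*-KO libraries, added after the data were seen, gave 0.18 for the interaction.

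Directions changed only for genes that were not called. Among the genes given in full, the log2 fold changes in cerebellum with 1 library left out ran from -0.015 to 0.39 for *B2m*, -0.13 to 0.019 for *H2-D1*, -0.078 to 0.14 for *Psmb10*, -0.18 to 0.21 for *Ifi27* and -0.70 to 0.83 for *Rsad2*. In cortex they ran from -0.10 to 0.61 for *Ifitm2*, -0.16 to 0.086 for *Ifit2*, -0.27 to 0.015 for *H2-T23*, -0.38 to 1.05 for *Oasl2*, -0.0067 to 0.59 for *Isg15*, -0.038 to 0.040 for *B2m*, -0.056 to 0.33 for *H2-D1*, -0.22 to 0.012 for *Psmb10* and -0.12 to 0.013 for *Ifi27*. Genes not given in full changed direction too, among them *Usp18*, *Rtp4* and *Ddx58* in cerebellum without *Snx14*-KO mouse 3. Among male mice alone *H2-D1* was at 0.0099, *Psmb10* at -0.029 and *Ifi27* at -0.14 in cerebellum, and *Ifi27* at 0.017 in cortex; *Ifi27* in cerebellum was also at -0.0008 by DESeq2, -0.0003 with RLE normalization and -0.0021 with all 12 libraries in 1 fit. Between WT tissues *Rsad2* was not called without any 1 of the WT mice. Low levels limit 13 of the 35 genes, which had under 100 read pairs in every library: *Nlrc5*, *Psmb9*, *Rsad2*, *Ifi35*, *Xaf1*, *Iigp1*, *Irf1*, *Psmb8*, *Usp18*, *Irf7*, *Tap1*, *Isg15* and *Rtp4*.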

Other observations

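MHC class II genes, which present peptides to CD4 T cells and mark macrophages and activated microglia, were outside the 35 genes. All 7 tested were higher in *Snx14*-KO cerebella (median log2(FC) 0.97), where 49.9% of all genes were higher. At an unadjusted p under 0.05 there were 5, where 5.78% of all genes were higher at that level, and none was called by edgeR. Border macrophage markers (median 1.07, 6 of 7 at that level) and meningeal fibroblast markers (median 1.15, 9 of 10) were higher in the same libraries, and their part in this was not tested. *Cd74*, the invariant chain, was at 1.89, 2.42 and 3.38 CPM in WT and 6.45, 6.89 and 6.50 CPM in *Snx14*-KO cerebella, with little spread among the latter. The log2(FC) was 1.37 (SE 0.230, adjusted p = 0.145), and DESeq2 called *Cd74* (adjusted p = 0.000656), where 0.846% of all genes were called higher. *H2-Aa* was at 1.17, 1.73 and 1.07 CPM in WT and 3.11, 2.76 and 2.76 CPM in *Snx14*-KO cerebella (log2(FC) 1.13, SE 0.270, adjusted p = 0.248). Unlike most of the 35 genes, neither was highest in mouse 3, and without mouse 3 the median of the 7 was 0.99 with 5 of them higher. In cortex 6 of the 7 were higher (median 0.42), and without mouse 2 the median was 0.039. *Cd74* and *H2-Aa* were named after their values were seen.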
